A study of Mus musculus with 6 samples.

Results

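Cyclic AMP is made by adenylyl cyclases, broken down by phosphodiesterases and read by protein kinase A (PKA), and the 45 genes described here encode these enzymes together with the PKA anchoring proteins and the CREB group of transcription factors. They were chosen by gene symbol: every row of the deposited gene table whose symbol names an adenylyl cyclase (Adcy), a phosphodiesterase (Pde), a PKA catalytic (Prkac) or regulatory (Prkar) subunit, an A-kinase anchoring protein (Akap followed by a number alone, which leaves out Akap17b), Creb1, Creb3 or Creb5, Crem, Atf1, or Gnas. The table held 20624 genes, and no member symbol occurred more than once. Transcripts were measured by RNA sequencing of total RNA, after removal of ribosomal RNA, in the mouse distal convoluted tubule line mDCT15. There were 3 wild type and 3 Pkd1-/- samples, all grown in the same medium with fetal bovine serum and antibiotics. The sample titles name the mutant cells Pkd1-/-, their genotype field calls them a knockdown, and the study describes a knockout made with CRISPR-Cas9. Each gene is given by a single level, the authors' mean normalized read count over all 6 samples. Values by sample and the difference between genotypes were not analysed here, so no level carries an error or a test. A share or an order within a family may therefore differ between the genotypes. The depth of each sample is unknown, while the means of all genes sum to 16746088 normalized counts.

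In the kidney, cyclic AMP formed behind receptors coupled to the stimulatory G protein Gs drives salt and water transport, and in polycystic kidney disease it promotes fluid secretion and growth of the cyst lining. PKA is held inactive as a tetramer of regulatory and catalytic subunits. When cyclic AMP binds the regulatory subunits the catalytic subunits are freed, and they phosphorylate targets near the membranes and organelles to which anchoring proteins tie them, as well as CREB in the nucleus. Phosphodiesterases keep the signal short and local.

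The labelled cell type was first set against its marker genes. Of 16 listed genes of the distal convoluted tubule, 8 had a row, led per kb by Wnk1 (mean normalized count 8468), Wnk4 (413) and Kcnj16 (428). With Stk39 (621), these were the 4 that reached a mean of 100, while Egf was at 48.3, Kcnj10 at 38.3, Trpm6 at 29.6 and Klhl3 at 5.70. Slc12a3, the thiazide-sensitive sodium chloride cotransporter that defines this segment, has no row in the table used here, and neither have Pvalb, Calb1, Slc8a1, Trpv5, Kl, Emx1 and Sall3. The 9 general markers of renal epithelium were uneven: Pax8, a transcription factor of the nephron lineage, had a mean of 4905, Cdh16, a kidney cadherin, had 4680, and Pax2 had 2428, while Esrrg was at 212 and Epcam at 115. The keratin gene Krt8 stood at 0.980, and Cdh1, Krt18 and Krt19 have no row. Markers of the thick ascending limb (Slc12a1, Umod, Cldn16) and the podocyte marker Nphs1 have no row either. In the collecting duct list Aqp3 was at 1.95 and Scnn1g at 0.618, the lowest mean of the table, while Aqp2, Avpr2, Scnn1b, Slc4a1 and Atp6v1g3 have no row. Lrp2, an endocytic receptor best known from the proximal tubule, had a mean of 8826, beside 169 for its partner Cubn, 2.77 for Slc5a2 and 2.04 for Slc34a1. Of the endothelial list Pecam1 was at 4.68, and Cdh5 and Kdr have no row. The leukocyte genes Cd68 and Ptprc had means of 41.9 and 5.36, and Cd3e has no row. All 6 genes listed for fibroblasts and stroma had a row, and 3 of them reached a mean of 100. Vim, which encodes an intermediate filament of mesenchymal and of many cultured cells, reached 17450. Col1a1 was at 201 and Acta2 at 110, while Pdgfrb was at 4.48, Col1a2 at 2.71 and Col3a1 at 2.44. The polycystin genes had means of 3175 (Pkd1) and 4723 (Pkd2). A mean over both genotypes cannot check the Pkd1-/- label.

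The cyclic AMP genes spanned a wide range of levels. Gnas was the highest of them with a mean of 12319, above 99.6% of all genes, and Pde6g, which encodes an inhibitory subunit of the photoreceptor phosphodiesterase, was the lowest with 1.05, at percentile 6.70. A mean of at least 100 was reached by 27 of the 45 genes, or 60.0%, and by 50.3% of all genes. A mean of at least 10 was reached by 35, or 77.8%, against 66.5% of all genes. Nearest to this minimum were Pde8b at 12.0 above it and Akap5 at 9.09 below it. The 10 genes at or above percentile 90 were Gnas, Akap12, Prkar1a, Akap11, Prkaca, Pde7a, Adcy6, Akap8, Akap9 and Prkacb. Together the 45 genes took 0.375% of the summed means, of which the 2 most abundant genes of the table alone took 8.08%. In bulk cultures such as these, a transcript in fewer cells and less of it in each cell cannot be told apart.

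The median mean of the cyclic AMP genes was 373, against 104.5 for all genes, a ratio of 3.57. All 45 are protein coding, and the median of the 13862 protein coding genes was higher than theirs, at 474. Per kb of exon the medians were 29.4 for the cyclic AMP genes and 28.6 for all genes with a length. The higher median of the list was thus not seen against protein coding genes, and per kb the medians were nearly level.

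**Figure D1:**
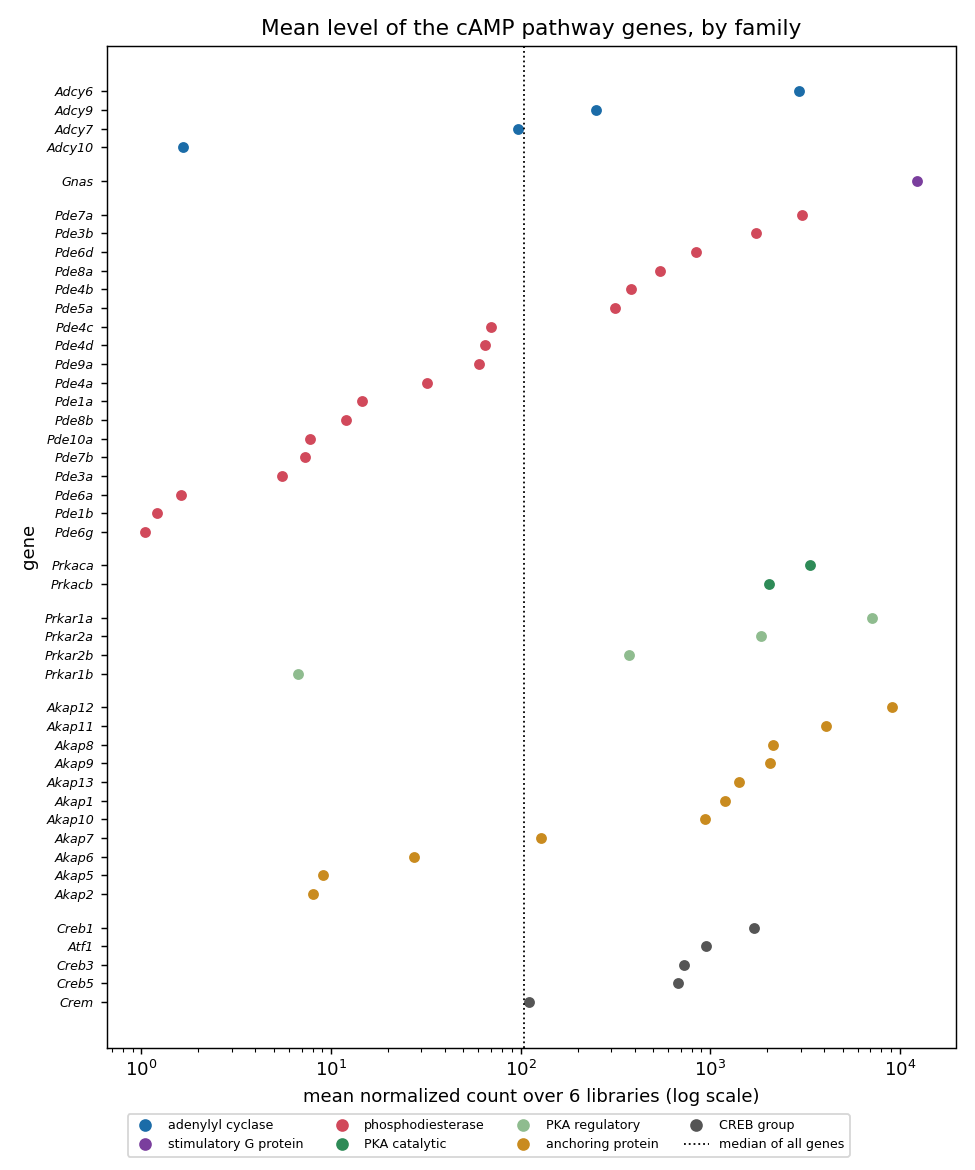
Each point is a gene, placed by its mean normalized count over 6 libraries on a log axis and coloured by family; the dotted line is the median of all genes, at 104.5. Every family other than the PKA catalytic subunits, the CREB group and the lone Gnas ran from above 100 to below 10, as in the PKA regulatory subunits, from 7108 (Prkar1a) to 6.74 (Prkar1b).

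**Figure D2:**
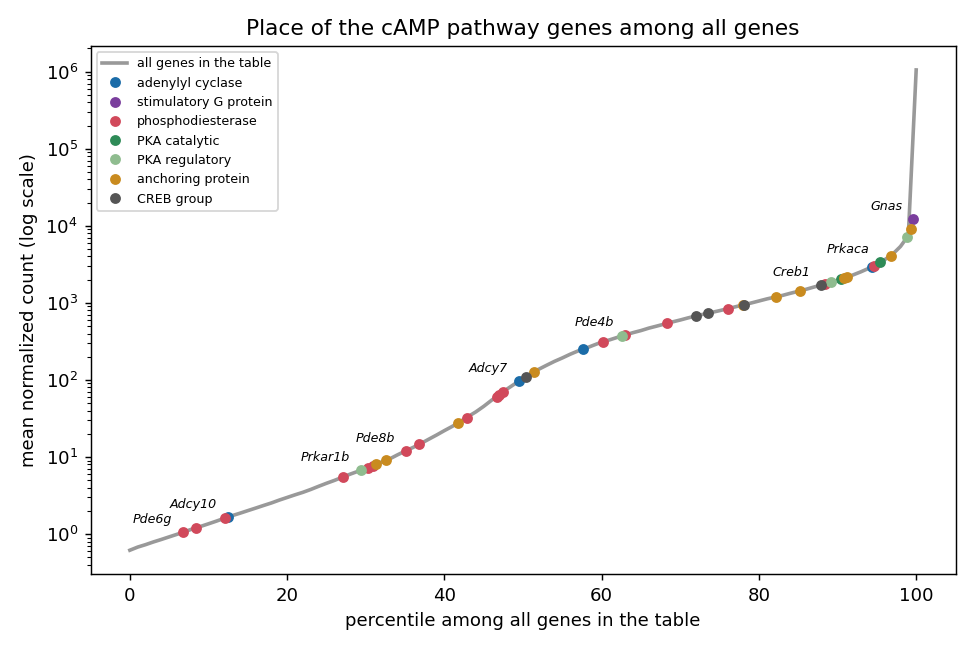
The grey line gives the mean normalized count (log axis) at each percentile of the 20624 genes, and the points are the 45 cyclic AMP genes at their own percentiles. They lie between percentile 6.70 (Pde6g) and 99.6 (Gnas).

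Upstream of the cyclases, receptor genes were low. Of 19 genes for receptors coupled to Gs, 9 had a row, and their median mean was 3.27. Ptger4, a prostaglandin E2 receptor, was the only receptor of this list above 100, with a mean of 200 and a level of 30.1 per kb. Adora2b, an adenosine receptor, and Vipr2, a receptor for vasoactive intestinal peptide, came next per kb with means of 9.05 and 9.48. Avpr2, the vasopressin receptor of the distal nephron, has no row in the table used here, nor have Ptger2, Gcgr, Glp1r, Vipr1, Sctr, Crhr1, Mc4r, Drd1 and Ptgir.

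Gnas encodes the alpha subunit of Gs, which activates the cyclases. Its gene (ENSMUSG00000027523, chr2:174126022-174188537, GRCm39) is a complex locus with 28 annotated transcripts, whose exons joined cover 12.0 kb, and its level was 1026 per kb. On its longest transcript, of 4.24 kb, the level was 2905 per kb, and these values do not separate the Gs alpha transcript from the others of the locus. Exons on the opposite strand overlapped 9.26% of its exon bases. Nespas, the antisense gene there, had a mean of 153. The study describes the read counting as run with default parameters, which in HTSeq assign reads by strand. How far strand was kept, and whether the libraries had the orientation that this setting assumes, was not tested. Reads from a gene and its antisense partner may therefore be mixed or exchanged, here and for the other overlaps given.

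Genes of the inhibitory G protein class ranged from abundant to low. Gnai2 had a mean of 5584 and 1283 per kb, Gnai3 had 3929 and 1151 per kb, and Gnai1 had 245 and 39.9 per kb, while Gnaz was at 312 and Gnao1 at 4.02. Summed per kb, the 3 Gnai genes stood at 2.41 times Gnas, but at 0.792 times without scaling by length and at 1.12 times on the longest transcripts, so the order of Gs and Gi transcripts changed with the lengths used.

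Among the 4 adenylyl cyclases with a row, Adcy6 held nearly all of the level. Adcy6, a membrane cyclase that is inhibited by calcium and is prominent in the renal tubule, had a mean of 2933 and 421 per kb of exon (ENSMUSG00000022994, chr15:98487854-98507957, 6.96 kb). This was 94.5% of their summed level per kb. Adcy9, a cyclase that responds little to forskolin, had a mean of 251 and 15.8 per kb (chr16:4102752-4238428, 15.9 kb). Adcy6 was 26.6 times Adcy9 per kb of joined exons and 15.5 times on canonical transcripts. Adcy7 had a mean of 96.9 and 8.38 per kb (chr8:88998882-89059394, 11.6 kb), and 13.0% of its exon bases were overlapped on the opposite strand, among others by Brd7, whose mean was 1573. Adcy10, the soluble cyclase that is activated by bicarbonate, was near the floor of the table with a mean of 1.66 and 0.190 per kb (chr1:165312752-165404344, 8.74 kb). Adcy1, Adcy2, Adcy3, Adcy4, Adcy5 and Adcy8 have no row in the table used here, and since a missing row gives no level and does not show a low one, shares refer to the 4 listed cyclases. Adcy6 kept between 89.4% and 94.5% of the family under the 4 lengths and without scaling.

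Of the phosphodiesterase genes, 18 had a row and 12 of them a mean of at least 10. Not all encode enzymes that degrade cyclic nucleotides: Pde6d, first per kb with a mean of 843 and 301 per kb (ENSMUSG00000026239, chr1:86470636-86510524, 2.80 kb), encodes a carrier of prenylated proteins, and Pde6g encodes the inhibitory subunit named above. Among the other 16 genes the level was concentrated in Pde7a, Pde3b and Pde8a. Pde7a, a high-affinity enzyme selective for cyclic AMP and level with Pde6d per kb, had a mean of 3037 and 300.2 per kb (ENSMUSG00000069094, chr3:19277270-19365890, 10.1 kb), 48.0% of the summed level per kb of the 16. Pde3b, which hydrolyses both nucleotides and is inhibited by cyclic GMP, had a mean of 1755 and 136.8 per kb (ENSMUSG00000030671, chr7:114013685-114138486, 12.8 kb), or 21.9%. Pde8a, another high-affinity enzyme for cyclic AMP, had a mean of 543 and 86.9 per kb, or 13.9%.

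The Pde4 family, the largest of the enzymes selective for cyclic AMP, stood below Pde7 and Pde3. Pde4b had a mean of 380, Pde4c 69.7, Pde4d 64.7 and Pde4a 32.2. Per kb Pde4b was at 32.2, 2.85 times Pde4c (5.07 on the mean transcript length) and 7.22 times Pde4d (2.66 on canonical transcripts), and the 4 genes together made up 8.28% of the enzymes, against 14.1% for Pde8. On the mean transcript length this order turned, with 11.3% for Pde4 and 9.34% for Pde8. In each of the families Pde3, Pde7 and Pde8 a single gene carried the level: Pde3b was 319 times Pde3a per kb, Pde7a 522 times Pde7b, and Pde8a 63.1 times Pde8b. The low partners had means of 5.51 (Pde3a), 7.29 (Pde7b) and 12.0 (Pde8b), and ratios to values so near the floor are imprecise. On canonical transcripts the first of these ratios was 595 and the second 272.

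Apart from Pde3, families that act on both nucleotides or on cyclic GMP were a small part. Pde1a, a gene of the calcium and calmodulin dependent family, had a mean of 14.6, Pde10a had 7.75 and Pde1b 1.20, and together they made up 0.434% of the level per kb. Pde5a, the target of sildenafil, had a mean of 314 and Pde9a had 60.7, and with the photoreceptor gene Pde6a at 1.61 they made up 7.07%. Exons on the opposite strand overlapped 35.4% of the exon bases of Pde1b and 18.2% of those of Pde5a. The remaining 92.5% belonged to the Pde3, Pde4, Pde7 and Pde8 families, with 10 genes, and the share of these 4 families together lay between 92.5% and 92.9% under the 4 lengths used. Pde3 alone held 22.0%. Pde1c, Pde2a, Pde6b, Pde6c, Pde6h and Pde11a have no row in the table used here.

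**Figure D3:**
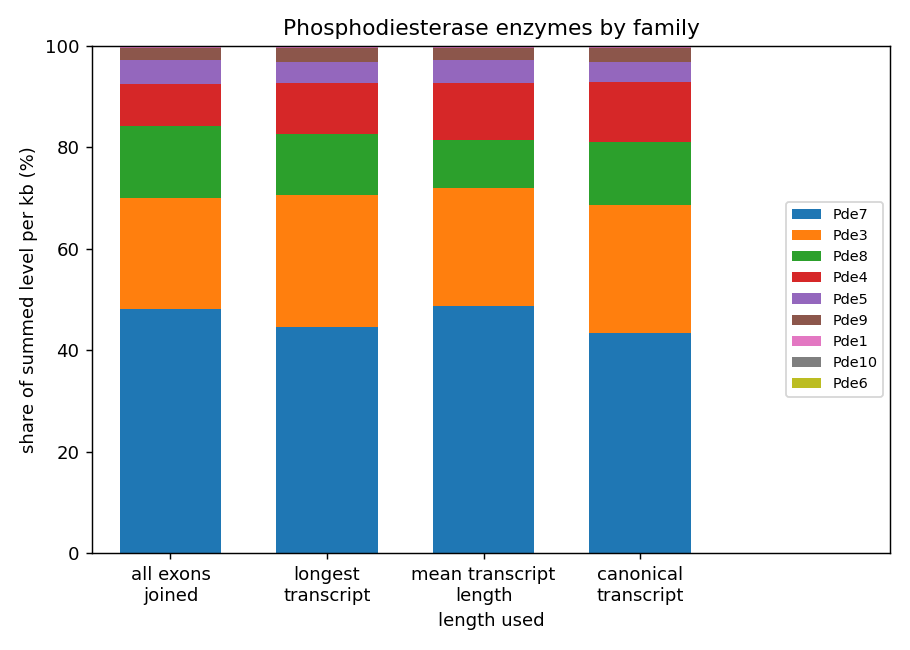
Stacked bars give the share of each numbered family in the summed level per kb of the 16 phosphodiesterase enzyme genes, under 4 gene lengths. Pde7 (43.3% to 48.7%) and Pde3 (22.0% to 26.0%) were the leading families in all 4 bars, and Pde1, Pde10 and Pde6 are too thin to see.

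Both PKA catalytic genes were abundant. Prkaca, the main catalytic subunit of most tissues, had a mean of 3352 and 1192 per kb (ENSMUSG00000005469, chr8:84699575-84723091, 2.81 kb). Prkacb had a mean of 2038 and 226 per kb (ENSMUSG00000005034, chr3:146435311-146518793, 9.03 kb). Prkaca was 5.28 times Prkacb per kb and 1.65 times without scaling, and its share of the pair was 84.1%.

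Of the regulatory genes, Prkar1a was far above the others. Prkar1a, whose product forms type I PKA and whose loss in humans causes Carney complex, had a mean of 7108 and 729 per kb (ENSMUSG00000020612, chr11:109513434-109560633, 9.75 kb), 75.3% of the 4. Prkar2a had a mean of 1849 and 172 per kb (ENSMUSG00000032601, chr9:108566513-108627641, 10.8 kb). Prkar2b had a mean of 373 and 66.4 per kb (ENSMUSG00000002997, chr12:32008448-32111363, 5.62 kb). Prkar1b, a form known mainly from brain, had a mean of 6.74 and 0.794 per kb (ENSMUSG00000025855, chr5:139002025-139136646, 8.49 kb). Type I genes stood at 3.07 times type II genes per kb, with a range of 2.80 to 3.90 over the 4 lengths.

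The balance of regulatory to catalytic transcripts could not be placed on either side of equality. Summed per kb of joined exons it was 0.683, and 0.813 on the longest transcripts. It was 1.223 on the mean transcript length, 1.24 on the canonical transcripts, a length added after seeing the data, and 1.73 with no length.

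Prkar1a was also among the few members whose promoter held the full cyclic AMP response element, the palindrome TGACGTCA to which CREB binds. Its RefSeq promoter at chr11:109650699-109650998 (GRCm38.p6, plus strand) is shown because it carries this element, in capitals, 49 bases before the start site, together with the promoter of Prkaca at chr8:83972728-83973027 (plus strand), which has only the shorter element TGACG, in capitals as its reverse complement CGTCA, 120 and 6 bases before the start. The Prkar1a promoter holds a further TGACG, left in lower case, 187 bases before the start. Both genes also have promoters with neither element, and which start these cells use was not tested.
Prkar1a: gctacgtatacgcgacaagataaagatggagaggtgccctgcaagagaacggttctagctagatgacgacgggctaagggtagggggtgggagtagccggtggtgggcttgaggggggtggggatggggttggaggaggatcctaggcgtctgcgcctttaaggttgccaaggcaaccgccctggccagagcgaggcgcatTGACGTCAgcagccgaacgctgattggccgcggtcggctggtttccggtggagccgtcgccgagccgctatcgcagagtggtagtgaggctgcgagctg
Prkaca: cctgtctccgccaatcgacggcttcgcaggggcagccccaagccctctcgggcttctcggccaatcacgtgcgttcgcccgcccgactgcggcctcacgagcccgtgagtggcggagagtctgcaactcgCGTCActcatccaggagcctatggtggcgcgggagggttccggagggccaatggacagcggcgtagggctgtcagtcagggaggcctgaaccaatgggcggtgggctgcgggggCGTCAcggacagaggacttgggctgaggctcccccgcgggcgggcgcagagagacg

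Inhibitors of PKA and other proteins that bind cyclic AMP were also listed. The PKA inhibitor genes Pkia and Pkig had means of 470 and 446, at 83.4 and 62.1 per kb, and their sum was 0.103 times that of the catalytic genes per kb of joined exons and 0.295 times on canonical transcripts. Pkib has no row. Rapgef3, which encodes the exchange factor EPAC1, had a mean of 571 and 46.7 per kb, 0.0482 times the PKA regulatory genes, and Rapgef4 had a mean of 1.49. Of the channels and Popeye proteins that bind cyclic nucleotides, Hcn2 led with a mean of 182 and 51.4 per kb, followed by Hcn3 with a mean of 49.2 and 9.94 per kb and Bves with a mean of 48.6 and 8.21 per kb. Cnga1, Cnga2, Cnga3 and Cnga4 have no row. Abcc4, a transporter that exports cyclic AMP, had a mean of 1209.

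**Figure D4:**
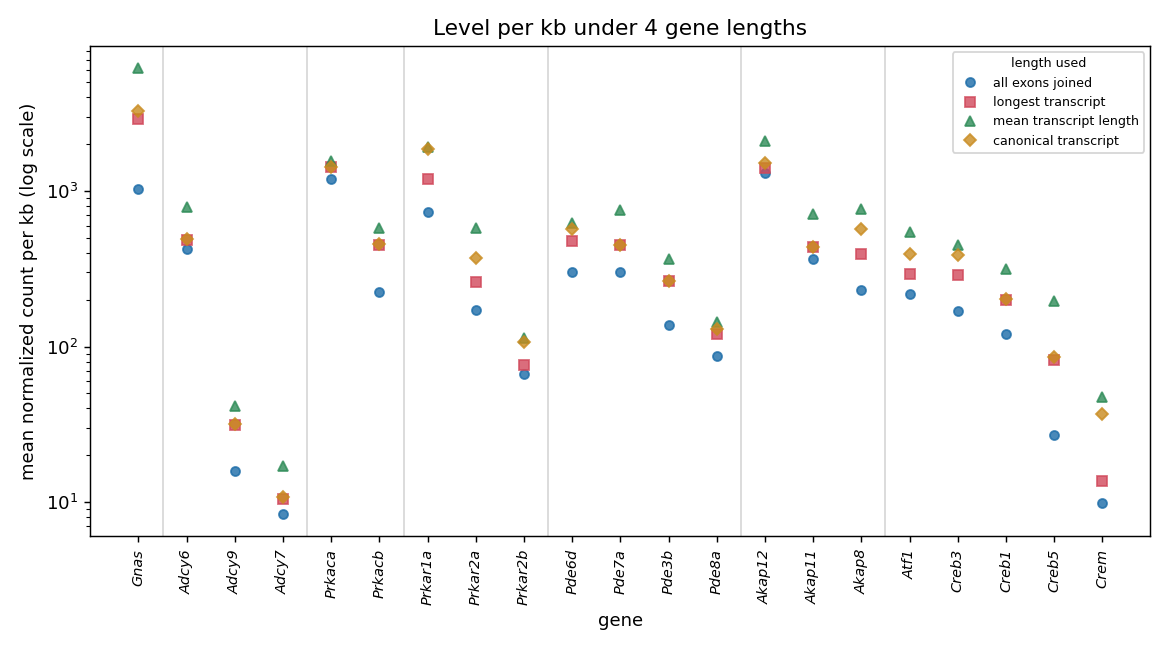
Points give the mean normalized count per kb (log axis) of 21 genes when the length is taken as all exons joined, the longest transcript, the mean transcript length or the canonical transcript; vertical lines part the families. Adcy6 stayed above Adcy9 and Prkar1a above Prkar2a for every length, while the places of Prkaca and Prkar1a crossed, with ratios of 1.64 on joined exons and 0.769 on canonical transcripts.

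Of the anchoring protein genes, 11 had a row, and 8 had a mean of at least 100. Akap12, also named gravin, a large scaffold at the plasma membrane that binds PKA and protein kinase C, had a mean of 9093, the second highest of the 45 after Gnas, and 1301 per kb, the highest on joined exons (ENSMUSG00000038587, chr10:4216118-4309470, 6.99 kb). It made up 54.3% of the family per kb, and 36.15% when the mean transcript length was used. Akap11, which binds PKA and glycogen synthase kinase, had a mean of 4086 and 366 per kb (ENSMUSG00000022016, chr14:78729683-78774300, 11.2 kb). Akap8, a nuclear anchor, had a mean of 2137 and 229.7 per kb (ENSMUSG00000024045, chr17:32522645-32540212, 9.30 kb). Akap11 was 1.59 times Akap8 per kb of joined exons but 0.761 times on canonical transcripts.

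The next genes encode anchors of several compartments. Akap9, at the Golgi and centrosome, had a mean of 2079. Akap13 had 1428, Akap1 at the outer mitochondrial membrane had 1197, and Akap10 had 942. Scaled to length, Akap1 (182 per kb) and Akap10 (131 per kb) passed Akap9 (94.1 per kb) and Akap13 (66.3 per kb), whose joined exons cover 22.1 and 21.5 kb. On the mean transcript length this order turned over, with Akap9 at 1126 and Akap13 at 410 per kb against 336 for Akap1 and 283 for Akap10. Akap7 had a mean of 128, Akap6, known from the nuclear envelope of muscle, had 27.5 and Akap5 had 9.09. The row named Akap2 had a mean of 8.03, but its identifier belongs to a gene that GENCODE names Pakap, and exons of other genes on the same strand overlapped 69.8% of its exon bases, so its level is uncertain. Akap3, Akap4 and Akap14 have no row in the table used here.

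Anchoring proteins whose symbols the rule did not take covered a wide range. Of 13 such genes, Akap17b (mean 101.3) among them, 11 had a row, with a median mean of 559, and 9 had a mean of at least 100. The lowest were Synm at 40.7 and Cbfa2t3 at 1.03. Ezr, which encodes ezrin, a link between membrane and actin, led with a mean of 5759 and 824 per kb, and was followed by Pcnt, a centrosomal scaffold, at 2784 and 218 per kb and Arfgef2, a regulator of vesicle traffic, at 2519 and 217.7 per kb. Myrip and Sphkap have no row.

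All 5 genes of the CREB group with a row had a mean above 100. Atf1, which pairs with CREB and binds the same element, was first per kb with a mean of 946 and 219 per kb (ENSMUSG00000023027, chr15:100125664-100159129, 4.32 kb). Creb3, a factor held in the endoplasmic reticulum membrane until it is cleaved, had a mean of 732 and 169 per kb (ENSMUSG00000028466, chr4:43557639-43577647, 4.34 kb). Exons on the opposite strand overlapped 48.7% of the Creb3 exon bases, among them those of Tln1, whose mean was 11624. Creb1, which encodes CREB itself, had a mean of 1696 and 121 per kb (ENSMUSG00000025958, chr1:64571731-64643707, 14.1 kb). Creb5 had a mean of 676 and Crem, whose products include the repressor ICER, had 110. Without scaling by length Creb1 was the leading gene, with 40.8% of the group against 22.7% for Atf1.

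Creb5 was the other gene of the list with the full element in a promoter. Its promoter at chr6:53287053-53287352 (GRCm38.p6, plus strand) is shown for that element, in capitals, 45 bases before the start site. The promoter of Pde4b at chr4:102421305-102421604 (plus strand) is set beside it as an example of the shorter element in the gene of an enzyme that degrades cyclic AMP. That element is again in capitals as CGTCA, 34 bases before the start. The other promoters of Creb5 and Pde4b hold neither element, and which start these cells use was not tested.
Creb5: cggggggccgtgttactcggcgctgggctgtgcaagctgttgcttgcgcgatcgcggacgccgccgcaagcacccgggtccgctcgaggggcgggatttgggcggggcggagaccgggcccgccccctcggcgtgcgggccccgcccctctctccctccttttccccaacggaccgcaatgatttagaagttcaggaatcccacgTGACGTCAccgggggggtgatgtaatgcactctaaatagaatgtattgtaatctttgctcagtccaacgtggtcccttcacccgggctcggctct
Pde4b: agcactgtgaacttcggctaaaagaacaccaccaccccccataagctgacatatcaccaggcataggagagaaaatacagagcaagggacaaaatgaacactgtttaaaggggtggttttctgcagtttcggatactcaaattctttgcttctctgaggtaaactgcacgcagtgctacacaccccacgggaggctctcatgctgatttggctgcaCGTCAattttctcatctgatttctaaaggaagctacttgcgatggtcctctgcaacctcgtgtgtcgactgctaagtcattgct

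RefSeq promoters, reaching from 250 bases before to 50 bases after a start site, were found by symbol for 35 of the 45 genes, with 73 promoters in all. Adcy6, Akap2, Akap12, Crem, Pde3a, Pde3b, Pde6a, Pde6g, Pde7a and Pde9a have no entry. On either strand TGACGTCA occurred in 3 member promoters, of Prkar1a and Creb5, where the pair in Prkar1a overlap and hold the same element. This is 5.71% of the genes, against 3.39% of the 11872 genes with both a promoter entry and a row, and 2.03% of all genes in the promoter table. TGACG, which the full element contains, occurred in promoters of 16 genes, or 45.7%, against 33.6% and 23.0%. Members had more promoters per gene, 2.09 against 1.27 for genes with a row. Counted by promoter the shares were 4.11% against 2.84% for TGACGTCA and 27.4% against 29.1% for TGACG. In all promoters of the table they were 1.79% and 20.8%, so whether the shorter element was more or less frequent in the cyclic AMP genes turned on the background. The genes with TGACG were Adcy7, Adcy9, Akap11, Atf1, Creb5, Gnas, Pde1a, Pde4a, Pde4b, Pde8a, Pde8b, Prkaca, Prkacb, Prkar1a, Prkar1b and Prkar2a. A match describes the letters in the window and says nothing of binding.

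Downstream of CREB, coactivators and many early response genes were high. All 5 coactivator genes had means above 100, led per kb by Crebbp (mean 5434, 401 per kb), Ep300 (3954, 258 per kb) and Crtc2 (984, 234 per kb). Of 11 CREB target and immediate early genes, 9 had means above 100, and the first per kb were Egr1 (10820, 2407 per kb), Junb (4475, 1879 per kb) and Fos (3658, 1551 per kb). Nr4a2, with a mean of 60.7, and Nr4a3, with 6.13, stayed below 100. Genes of this list also respond to serum and to other kinases. The cells were routinely cultured with serum, but the study does not describe the medium at RNA collection. What set these levels was not tested.

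**Figure D5:**
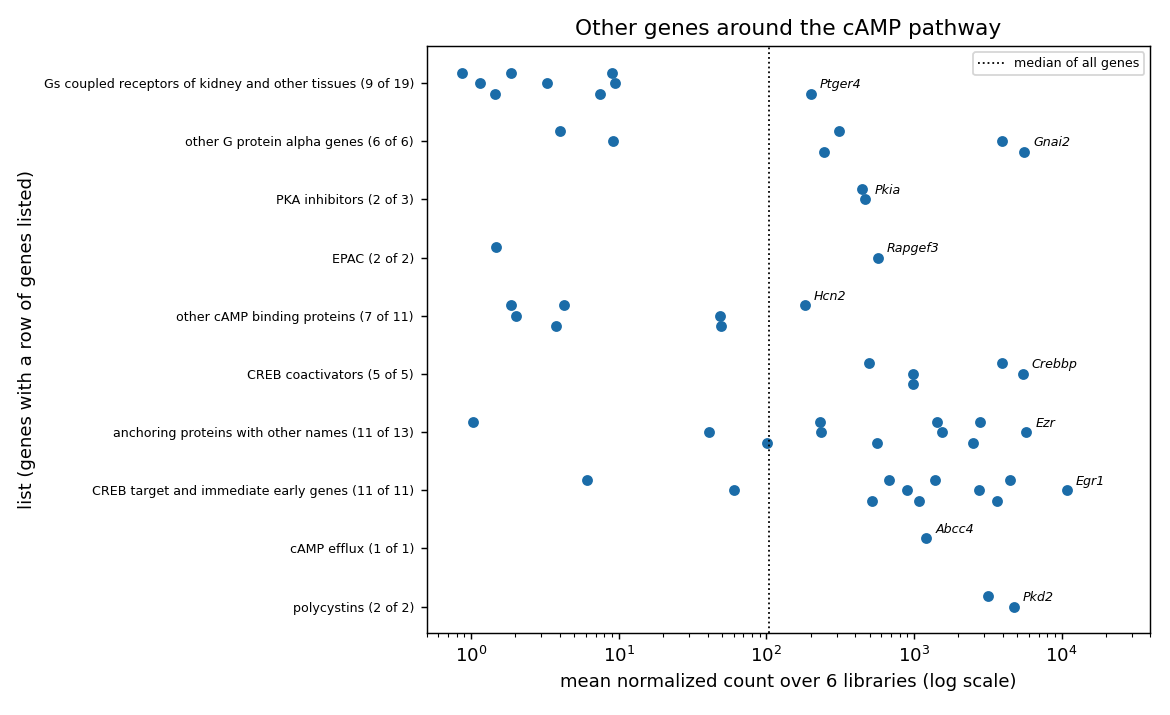
Each point is a gene of a list around the cyclic AMP pathway, placed by its mean normalized count over 6 libraries (log axis), with the highest gene of each list named and the number of genes with a row beside the list name; offsets within a list only separate points. Receptors coupled to Gs lay lowest, with a median of 3.27, and the coactivators and early genes lay at medians of 991 and 1077.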

How the data were processed

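Total RNA of the 3 wild type and 3 Pkd1-/- samples was sequenced as paired reads. Per the submitters' processing notes, Trim Galore 0.4.5, STAR 2.7.5a, HTSeq 0.11.0 and DESeq2 1.22.0 in R 3.5.3 were used with the GRCm39 genome. The authors deposited a single table for all samples, from which only the mean signal of each gene was used, a normalized read count averaged over all 6 samples by the authors. The table's other columns, the authors' log2 fold change between genotypes with its standard error, statistic, p-value and adjusted p-value, were not used. The study states a minimum of 5 counts per sample and gene, yet the means go down to 0.618. Values by sample and depth were not analysed here, and no test was made.

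Identifiers were matched to GENCODE M39 (GRCm39), which held 97.6% of them and all 45 genes. Levels were compared between genes as the mean per kb of joined exons, and families by summed level per kb. Alternatives were other lengths, minimum means of 1 and 100, summed rows of a repeated symbol and other backgrounds. Promoters are from RefSeq (GRCm38.p6). All 45 genes are named; the first 3 per kb of each family, and all in families of up to 4, carry position and length. The members and lists were chosen with earlier results of these data known. Python 3.11.15, numpy 2.4.6, pandas 2.3.3 and matplotlib 3.10.9 were used, and functions were tested on known answers.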

Additional observations from a re-analysis of the deposited data

How the results depend on the processing

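No paired analysis was possible because the results come from a mean over all samples and from no test. Since the depth of each sample and the spread are unknown, a value within 1.5 times the main value was taken as unmoved. The number of genes at the minimum of 10 stayed within that limit at the other minimums, and summing repeated symbols changed nothing, as no member symbol was repeated. With the mean transcript length Pde6d gave up the first place among the phosphodiesterases, with 28.6%, the share of Akap12 was 36.15%, and the regulatory to catalytic ratio turned to 1.223. With no length Pde6d held 11.8% and Atf1 22.7%, neither then first, that ratio was 1.73, and 28 of the 45 genes kept their place within the family. On canonical transcripts, a length chosen after seeing the data, the ratio was 1.24. These shifts follow from the lengths themselves. The median of the members over that of all genes was 1.71 for genes with a mean of at least 10, 1.03 per kb, and turned to 0.788 against protein coding genes. The shorter promoter element was in 45.7% of genes, the full element in 5.71%. The share of Pde7a among enzymes, also added after seeing the data, lay between 43.2% and 48.5%. A search for PKA sites in the proteins was not run. Exon lengths are from a later annotation than the one counted, and means near 1 rest on few reads.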
